A study of Mus musculus with 107 samples.

Results

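Scd1 encodes stearoyl-CoA desaturase 1, and it was represented by 1 probe of the 23536 on the array and by 1 of the 12315 genes kept after filtering. The gene was chosen from measured values of these same arrays, because its level over mice had been seen not to follow the genes of fatty acid synthesis. That relation is therefore given below as a description, without a test. With a single probe, agreement between probes of Scd1 could not be examined.

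The arrays measured liver RNA of female F2 mice, the second generation of a cross of C57BL/6J with DBA/2J mice, both inbred, all on an atherogenic diet. Each F2 mouse carries its own mixture of both parental genomes, and the labels give no age, genotype or second group. RNA of each mouse was hybridised with a common pool of equal RNA parts of the mice. Of 111 mice stated, 107 arrays were analysed here, and 3 of them (mice 24, 55 and 91) held no measured values, which leaves n = 104 mice, 1 array each. With 1 array a mouse, array noise and differences between mice cannot be told apart, and precision is limited by how many arrays there are. A ratio to a pool gives no level of a gene in liver, so the tissue label could not be checked by marker level.

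Values are log10 ratios, read as mouse over pool: -1 would be 10-fold below the pool. The base and direction are not stated in the labels; base 10 was taken from the limits of the scale, which are -2 and 2 and would then mean 100-fold, and the direction is likely from the array titles. Correlations are the same if every sign is turned, while above and below the pool, lowest and highest, and the side of a tail would change places. In 18 arrays (mouse numbers 59 to 107) 946 to 1828 values lay at these limits, against at most 496 in the other 86. These 18 limit-rich arrays were treated as a technical batch, and values are given for both sets of arrays where they bear on a result.

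Stearoyl-CoA desaturase sits in the membrane of the endoplasmic reticulum and puts a double bond into saturated fatty acyl-CoA, turning stearate into oleate and palmitate into palmitoleate. Its electrons come from NADH or NADPH through a cytochrome b5 reductase and cytochrome b5. Scd1 is the main form in mouse liver. Its transcription is known to be raised by insulin through SREBP-1c, by carbohydrate through ChREBP and by oxysterols through LXR, the regulators that also act on fatty acid synthase and its neighbours in the pathway, and its products feed triglyceride and cholesteryl ester synthesis.

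Scd1 had a value on all 104 arrays, and none of these lay at the limits. The lowest log10 ratio was -0.410 (mouse 31, 2.57-fold below the pool), the median -0.151 (1.42-fold below) and the highest 0.687 (mouse 144, 4.87-fold above), with an SD of 0.160 (n = 104). In this direction 9 of the 104 mice lay above the pool and 95 below. None of the 9 was on a limit-rich array, so all 18 of those lay below. The 5th to 95th percentile range was 2.63-fold over all mice, 2.96-fold over the 86 arrays and 1.58-fold over the 18 limit-rich ones, against a median of 1.94-fold over all genes. By SD, Scd1 stood at percentile 76.9 of the genes measured. The distribution had a long upper tail, with a skewness of 2.21 (a lower tail with mouse 144 lowest, were the direction turned). The values of 5 mice lay more than 1.5 interquartile ranges above the upper quartile: mouse 144 at 0.687, mouse 122 at 0.425, mouse 155 at 0.372, mouse 111 at 0.288 and mouse 39 at 0.161. All 5 were among the 86 arrays.

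The value of Scd1 was held in common with other probes of the same array. On the median array, 31.5 other probes lay within 0.0001 of the Scd1 log10 ratio, where the values carry 5 decimals. The density of probes at distances of 0.001 to 0.01 from Scd1 would place 2.82 in a window of that width. At least 10 probes were that close on 93 arrays, and on 3 arrays none was. The number reached 62, and on the 18 limit-rich arrays it was never below 28. Over arrays, 26 of the other 23535 probes (0.11%) were within 0.0001 of Scd1 on at least 50% of arrays, 21 of them with a gene name. A tolerance of 0.001 gave 28 such probes, and one of 1e-05 gave 1. The pattern was noticed in these data and is described without a test.

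The named probes at the Scd1 value belonged to genes with unrelated tasks, many of them known as strongly expressed in hepatocytes. They included secreted plasma proteins: albumin (Alb, 81 arrays), complement factor B (Cfb, 87), fibrinogen beta chain (Fgb, 81), prothrombin (F2, 74), the haemoglobin binding protein haptoglobin (Hp, 69), Ambp (73), the protease inhibitor Pzp (64) and the selenium carrier Selenop (62). Others encode metabolic enzymes and carriers: the liver fatty acid binding protein Fabp1 (87 arrays), the gluconeogenic enzyme Pck1 (87), Cyp2a4 (85), glutathione peroxidase Gpx1 (84), cytochrome b5 (Cyb5a, 83), the carboxylesterase Ces1c (79), Scp2 (63), Mat1a (60) and Hadh (55). The remaining named ones were Ddx6 (88 arrays), the ferritin heavy chain Fth1 (79), H2-Q10 (77) and the ribosomal protein gene Rps14 (74). Unnamed probes reached 90 arrays. None of the 11 measured fatty acid synthesis genes, nor Scd2 or Scd3, was within 0.0001 of Scd1 on a single array.

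**Figure D1:**
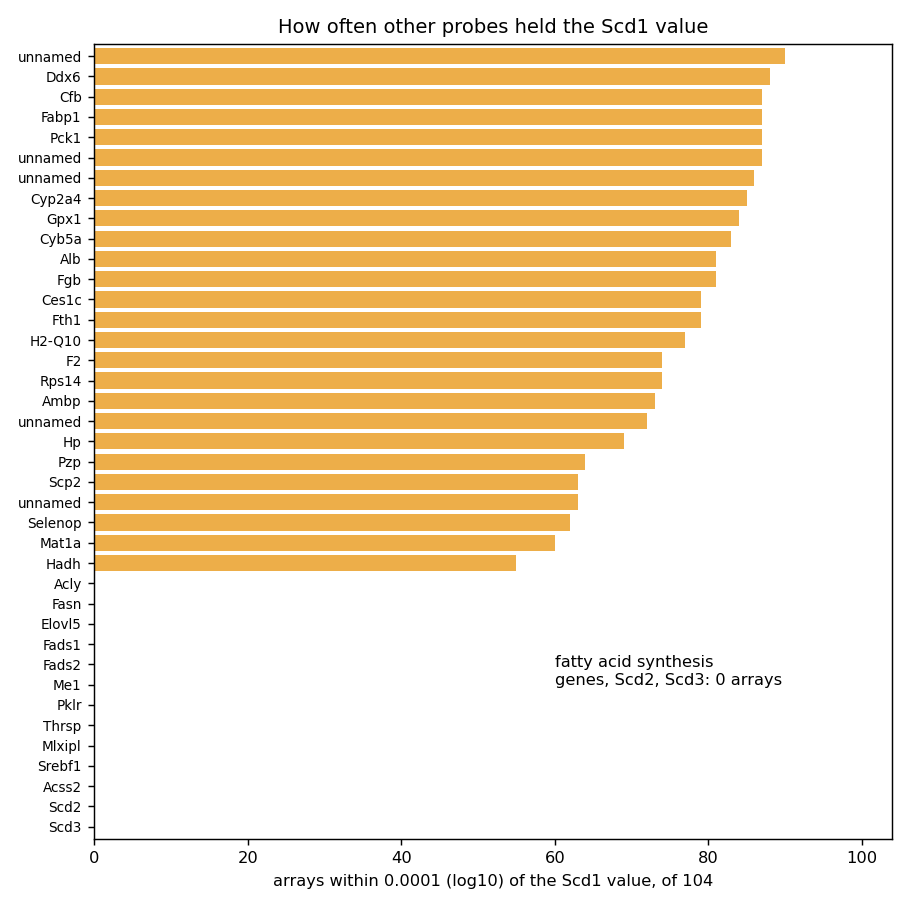
Bars give the number of arrays, of 104, on which a probe lay within 0.0001 (log10) of the Scd1 probe, for the 26 probes at that value on at least 50% of arrays (yellow) and for the 11 measured fatty acid synthesis genes, Scd2 and Scd3 (blue, all at 0). The yellow bars run from 55 arrays (Hadh) to 90 (an unnamed probe).

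Scd1 lay within 0.0001 of the median of these 26 probes on 87 of 104 arrays, 69 of the 86 and all 18 of the limit-rich set. On those 87 arrays the ratio of Scd1 cannot be told apart from the median ratio of the 26, though single probes could lie apart. Albumin stood at -0.260 in mouse 17 and -0.00674 in mouse 97, against -0.310 and -0.0848 for Scd1. Gpx1 stood at -0.0935 in mouse 8, against -0.105. In mouse 120 12 of the 26 lay at their median, and they spread from -1.017 to -0.0542. Each of the 26 probes had its own median over mice between -0.167 and -0.145, so Scd1's position below the pool was theirs as well. Spot brightness, background and saturation were not analysed here, and their part in the common value was not tested.

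On the other 17 arrays Scd1 lay more than 0.0001 from the median of the 26 probes, above it on 9 and below it on 8. Scd1 did not stand alone on all of these. Other probes within 0.0001 of it numbered 21 in mouse 78, 18 in mouse 6, 17 in mouse 11 and 16 in mice 44 and 142. In mice 6, 11 and 78 none of the 26 lay at their median, while in mouse 44 14 did. The distance from the median passed 0.05 on 5 of the 17 arrays. Scd1 lay above by 0.280 in mouse 144, 0.155 in mouse 111, 0.0994 in mouse 122 and 0.0523 in mouse 155, and below by -0.0960 in mouse 44. In mice 144, 111, 122 and 155, which also held the 4 highest Scd1 values, none of the 26 probes lay within 0.0001 of their own median, and they spread from 0.0412 to 0.723 in mouse 144 and from -0.268 to 0.477 in mouse 111. In these 4 mice Fasn stood at 0.396, -0.207, 0.124 and 0.0950. Fasn was thus above the pool in 3 of them and below it in mouse 111.

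**Figure D2:**
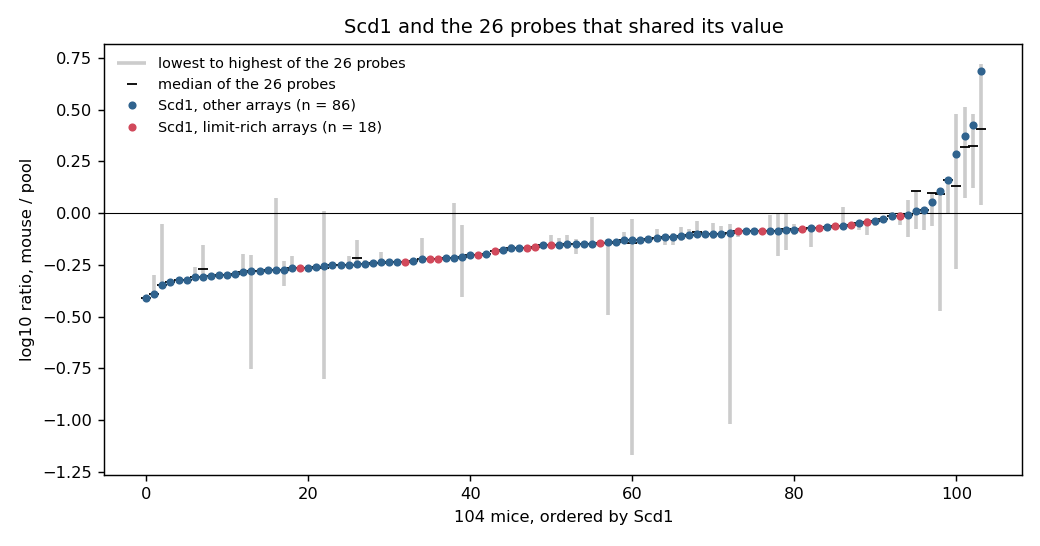
Points give the log10 ratio of Scd1 for 104 mice in rising order, blue for the 86 arrays and red for the 18 limit-rich ones; black dashes give the median of the 26 probes on the same array and grey lines their lowest and highest value. Scd1 lay on the dash on 87 arrays, and the 4 highest points (0.288 to 0.687) lay above it.

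Of the genes, albumin had the highest Pearson r with Scd1 over all mice. Its log10 ratio had r = 0.988 with Scd1 over 104 mice, rho = 0.978, r = 0.988 on the 86 and on the 18 arrays, and 0.981 without the 2 mice farthest from the Scd1 median (144 and 122). The slope was 0.990 ± 0.0170 (SE), with an adjusted p of 2.38e-77 by limma. The albumin probe is among those picked from these data for lying at the Scd1 value, where it lay on 81 of 104 arrays. This slope and its p-value follow largely from that selection, so no conclusion is drawn from the test. As a description, the albumin ratio of most mice was close to their Scd1 ratio. The difference between both had an SD of 0.0253, against the SD of 0.160 of Scd1 itself. The order among the closest genes is not fixed. By rho, genes above albumin included Gpx1 (0.995), Cyb5a (0.989), F2 (0.986), Cfb (0.982), Fth1 (0.982) and Cyp2a4 (0.979). Without the 2 mice Cyb5a (0.988) and Gpx1 (0.985) stood above it by r. Single probes without a gene name reached r = 0.995, and the Ddx6 probe 0.989. With Gpx1 the correlation was 0.982 over all mice, and on the 18 limit-rich arrays it rounded to 1.

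**Figure D3:**
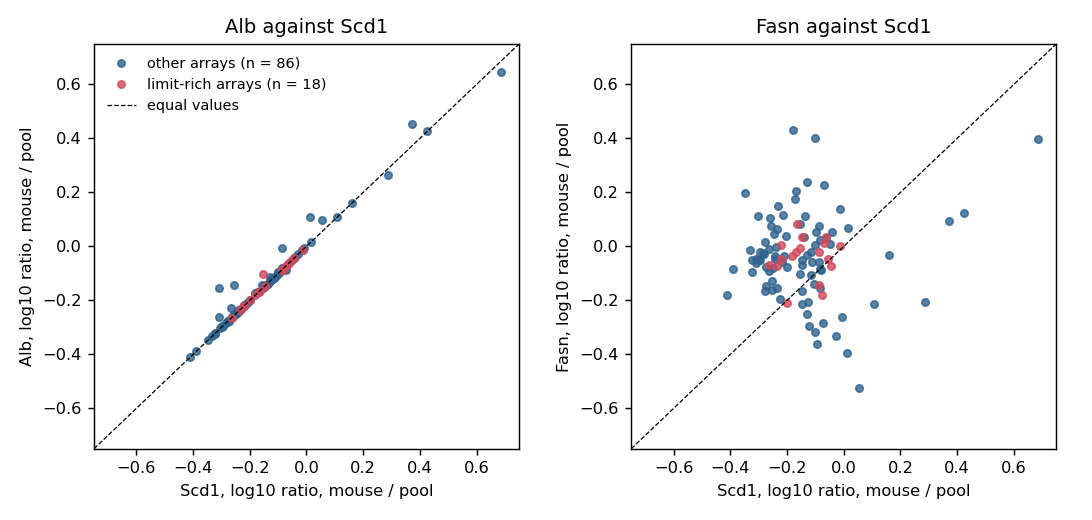
Each point is 1 mouse, with the log10 ratio of Scd1 on the horizontal axis and that of Alb (left) or Fasn (right) on the vertical axis, blue for 86 arrays and red for 18 limit-rich arrays; the dashed line marks equal values. Alb lay on or near the line (r = 0.988), and Fasn was scattered about it (r = 0.0798).

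Fatty acid synthesis runs from citrate cleavage by ATP citrate lyase (Acly) through fatty acid synthase (Fasn) to elongation and desaturation. Of 14 genes listed 11 were measured, and Acaca, Acacb and Elovl6 were not analysed here. Scd1 had r = -0.0122 and rho = 0.0109 with the mean scaled level of the 11, r = -0.0140 on the 86 arrays, -0.0486 on the 18, and -0.107 without the 2 farthest mice. Among the enzymes, Acly had r = 0.0913, Fasn 0.0798, the elongase Elovl5 -0.0548, the desaturases Fads1 0.0545 and Fads2 -0.0359, malic enzyme Me1 -0.157, pyruvate kinase Pklr -0.138 and acetyl-CoA synthetase Acss2 -0.221. Among the regulators, Srebf1, which encodes SREBP-1, had r = 0.132, Mlxipl, which encodes ChREBP, 0.0929, and the lipogenic protein gene Thrsp 0.0657. The median of the 11 was 0.0545, and 6 lay above 0 and 5 below. Without mice 144 and 122, 9 of the 11 lay below 0, with Acly at -0.0696, Fasn at -0.135, Thrsp at -0.0339 and Srebf1 at -0.0196. On the 18 limit-rich arrays 7 of 11 lay below 0 and the median was -0.102, with Mlxipl at 0.470, Srebf1 at 0.465 and Acss2 at -0.522.

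These genes did vary, and with one another. The correlation of a member with the score of the other 10 ran from 0.316 (Acly) to 0.772 (Fads1), with a median of 0.590. The 5th to 95th percentile range was 6.69-fold for Thrsp, 4.32-fold for Elovl5, 4.28-fold for Me1, 3.16-fold for Fasn and 1.68-fold for Acly. Scd1, at 2.63-fold, fell within that span. Medians of the 11 ran from -0.158 (Thrsp) to 0.0302 (Acss2), and Thrsp was the one with a median as low as that of Scd1. The median number of other probes within 0.0001 was 1 to 17 around the 11 genes, against 31.5 around Scd1.

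**Figure D4:**
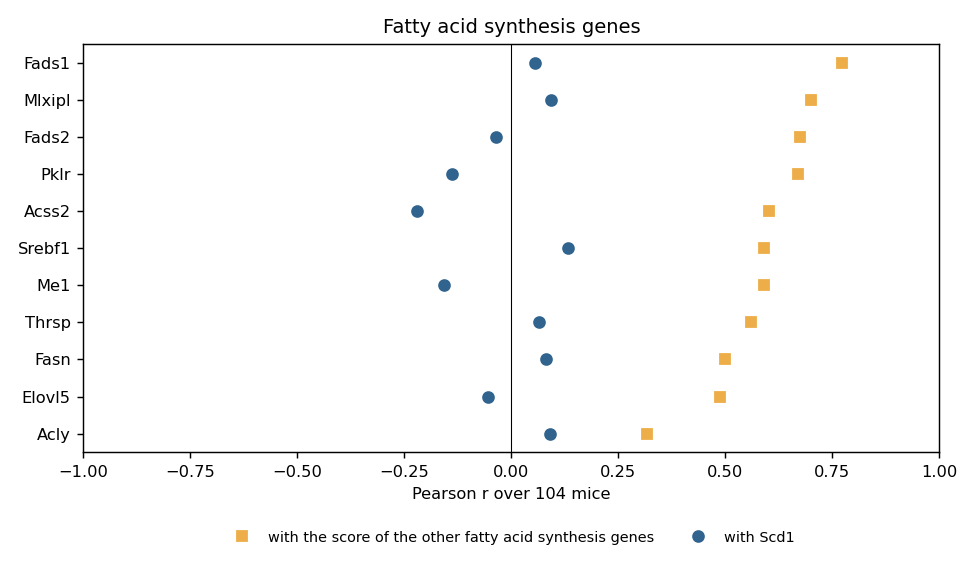
For each of the 11 measured fatty acid synthesis genes, circles give Pearson r with Scd1 and squares Pearson r with the mean scaled level of the other members, over 104 mice. The circles lay between -0.221 and 0.132 and the squares between 0.316 and 0.772.

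The other desaturases of the family are encoded by neighbours of Scd1. Scd2, known as the main form in brain and in the neonatal liver, varied 13.3-fold over mice and had r = -0.0681 with Scd1 (rho -0.187, limma adjusted p = 0.610). Scd3, known from skin, varied 1.29-fold. It had r = 0.363 with Scd1 and rho = 0.238 (0.389 on the 86 arrays, 0.308 on the 18, 0.225 without the 2 farthest mice), with a slope of 0.0886 ± 0.0234 (SE) and a limma adjusted p of 0.00116. Without the 2 mice (144 and 122) Scd3 no longer passed the test. It did not pass either with the median of the 26 probes in the model (limma adjusted p = 0.360). The family's members are similar in sequence, so hybridisation of one transcript to another's probe cannot be told apart from its own signal, and the probe sequences were not used here.

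Of the genes that bring electrons to the desaturase, 5 of 6 listed were measured, and 1 rose with Scd1, 1 fell and 3 were not called. Cytochrome b5 (Cyb5a), the direct donor, had r = 0.983 (adjusted p = 9.51e-71 by limma), but it is one of the genes at the common value, on 83 arrays. The reductase gene Cyb5r4 went the other way, with r = -0.640, rho = -0.541, -0.510 without the 2 farthest mice and an adjusted p of 5.50e-12. Cyb5r3, the main microsomal reductase, had r = 0.173 (limma adjusted p = 0.150), but passed on the 86 arrays with r = 0.362, Cyb5r1 -0.157 (0.200) and the mitochondrial cytochrome b5 gene Cyb5b -0.148 (0.228). By rho Cyb5r1 was called, at -0.252 (permutation adjusted p = 0.0246), and with the first principal component of all genes removed Cyb5b was, at -0.247. Of genes supplying NADPH and precursors, 6 of 9 listed were measured and none was called; the pentose phosphate enzyme gene Taldo1 had the highest r of these, 0.218 (limma adjusted p = 0.0657; with the permutation test of rho, 0.213), and with the first principal component removed it was called, at 0.320.

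Across the whole table, 12303 genes outside the fatty acid synthesis list were tested by limma with Benjamini-Hochberg adjustment at 0.05. A positive slope on Scd1 was called for 2170 (17.6%) and a negative slope for 2758 (22.4%). The median r of all genes was -0.0528. With 100000 permutations, two-sided and adjusted over all genes, 2088 and 2599 genes passed by r and 2687 and 2796 by rho. Of the limma calls, 1975 positive and 2116 negative ones were also called by rho. On the 18 limit-rich arrays alone, 1837 of the 2170 and 2422 of the 2758 kept their sign. With the median of the 26 probes added to the model, 536 positive and 419 negative slopes on Scd1 were called. Of the 4928 genes called without it 709 were called with it, 53 of them with the opposite sign. Scd1 lay within 0.0001 of that median on 87 of 104 arrays (r = 0.981 over all arrays). Slopes on Scd1 in that model therefore rest on the few arrays where both differ. With that median in place of Scd1 the counts were 2168 and 2678. Scd1 also had an absolute r of 0.837 with the second principal component of the scaled genes, which held 10.8% of their variance, and of 0.0233 with the first.

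The 12 genes with the largest positive r were Alb, Cyb5a, Gpx1, Cfb, Fth1, F2, Pck1, Ces1c, Fgb, Rplp1, Rps14 and Ddx6, with r from 0.929 to 0.988 and rho from 0.862 to 0.995. Without the 2 farthest mice their r ran from 0.899 to 0.988. Of these 12, all but the ribosomal protein gene Rplp1 had a probe among the 26. Rplp1 was still within 0.0001 of Scd1 on 45 arrays, 15 of them limit-rich. Once the median of the 26 was in the model, it was not called (limma adjusted p = 0.0503). The slope of Pck1, the gluconeogenic enzyme induced by fasting, was 0.894 ± 0.0323 (SE). Ddx6 had 2 probes, of which 1 was at the common value, and the mean of both had a median of -0.0922. Each of the 12 genes had an adjusted permutation p of 7.91e-05 for r and 6.84e-05 for rho, the smallest these tests could give. For those with a probe among the 26, picked from these data for lying at the Scd1 value, these p-values are no separate test. For Rplp1, often at that value too, no conclusion is drawn from them either. In all, 32 genes had r above 0.9 and 187 above 0.8.

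The next 12 genes in the order, looked up after their values were seen, had r from 0.910 to 0.923: Tspan15, Rapsn, Adad1, Ahsg, Atoh1, Oca2, Lyl1, Zpr1, Rlbp1, Cdk16, Cyp2a4 and Mypn. Rapsn, which clusters acetylcholine receptors at the muscle synapse, had r = 0.921 with Scd1, the testis gene Adad1 0.921, the neural transcription factor gene Atoh1 0.919 and the melanosome gene Oca2 0.918. Tspan15 had r = 0.923. These 5 genes had medians close to the pool, from -0.0299 (Rapsn) to -0.0113 (Oca2), and slopes between 0.440 (Atoh1) and 0.672 (Tspan15). Their ranges were narrow, from 1.504-fold (Atoh1) to 1.66-fold (Tspan15), and their r on the 18 limit-rich arrays ran from 0.682 to 0.893. The hepatocyte gene Ahsg lay among them with r = 0.919, a slope of 0.774 and a median of -0.150, near that of Scd1.

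The 12 genes with the largest negative r were Nras, Metap2, Ube2q1, Fam3a, Senp5, Zcchc10, Ikbkg, Klhdc10, Bod1l, Csnk1a1, Wipf2 and Trim33, with r from -0.775 to -0.694. Ube2q1 encodes a ubiquitin conjugating enzyme, Senp5 a SUMO protease and Csnk1a1 casein kinase 1 alpha. Nras, a small GTPase, had a slope of -0.586 ± 0.0473 (SE), rho = -0.720 and an adjusted p of 1.89e-20 by limma. Its r was -0.817 on the 86 arrays, -0.504 on the 18 and -0.675 without the 2 farthest mice. Ikbkg, the regulatory subunit of the IKK complex, had r = -0.717 and a slope of -0.583 ± 0.0559 (SE). Medians of the 12 lay just above the pool, from 0.0111 (Ube2q1) to 0.0993 (Ikbkg). Once the median of the 26 probes was in the model, Nras was not called (limma adjusted p = 0.100). Neither were Metap2, Senp5, Klhdc10, Bod1l, Csnk1a1, Wipf2 and Trim33. Fam3a (0.0206), Zcchc10 (0.0411), Ikbkg (0.0436) and Ube2q1 (0.0473) still were. Few arrays separate Scd1 from that median, so relations to Scd1 and to the common value can hardly be told apart.

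The pathway and cell type lists beyond fatty acid synthesis held 280 different tested genes. Of these 33 rose with Scd1 (11.8%), 26 fell (9.29%) and 221 were not called, below the 17.6% and 22.4% of all genes. Among the 33 were 7 genes at the common value, and without those 7 the count was 26 of 273 (9.52%). A further 5, Ahsg (50 arrays), Cyp3a11 (44), Apoe (27), Fgg (11) and Apoc1 (10), were within 0.0001 of Scd1 on at least 10 arrays, and without all 12 the count was 21 of 268 (7.84%). Counts below are of limma calls at an adjusted p of 0.05, to be read beside the 17.6% positive and 22.4% negative of all genes.

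Regulators and targets of SREBP and LXR gave 1 positive and 2 negative calls among 11 measured of 18 listed. Rxra, the partner receptor of LXR, had r = 0.372 and rho = 0.150 (permutation adjusted p of rho 0.213), and it no longer passed without the 2 farthest mice (r = 0.199). Abca1, the LXR target that exports cholesterol, had r = -0.432 and rho = -0.541, and Insig2, which retains SREBP in the endoplasmic reticulum, had r = -0.269 (-0.212 and not called without these mice, -0.114 and not called with each array scaled). In sterol synthesis 1 of 11 measured genes rose and 1 fell: the sterol carrier gene Stard4 had r = 0.238 (0.216 and not called on the 86 arrays), and the methylsterol oxidase gene Msmo1 had r = -0.362. Both lists had medians inside the middle 50% of all genes, 0.109 and -0.0610. None of these called genes was called once the median of the 26 probes was in the model. The limma adjusted p then ran from 0.0835 (Abca1) to 0.981 (Insig2).

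Genes downstream of the desaturase showed few calls. In triglyceride and cholesteryl ester synthesis 3 of 10 measured genes fell and none rose. Dgat1, which adds the last acyl chain to triglyceride, had r = -0.408 and a slope of -0.176 ± 0.0391 (SE), with -0.153 and no call once each array was scaled. Gpam, which adds the first, had r = -0.331. Of 10 lipid droplet and lipolysis genes measured, 1 rose and 1 fell. Abhd5, the lipase activator, had r = 0.450, but rho = 0.0956 and r = 0.193 without the 2 farthest mice. Pnpla2, the lipase it activates, had r = -0.260, but rho = 0.107 and r = -0.00281 without them. Neither passed without mice 144 and 122. In PPAR alpha targets and fatty acid oxidation 2 of 13 measured fell, the mitochondrial enzyme genes Hadhb (r = -0.257) and Acadl (-0.235), and 11 of 13 r values were below 0 (median -0.132). Neither gene passed without mice 144 and 122, at -0.205 and -0.229. Once the median of the 26 probes was in the model, Dgat1 (limma adjusted p = 0.646), Gpam (0.986), Hadhb (0.131) and Acadl (0.251) were not called. Abhd5 (0.0417) and Pnpla2 (0.00343) were called in that model.

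Lipoprotein assembly was the lipid list with the most positive calls, 5 of 10 measured, and none was negative. Apoe, a ligand of lipoprotein receptors, had r = 0.792 and rho = 0.809, with a slope of 0.673 ± 0.0512 (SE), an adjusted p of 4.99e-22 by limma and a median of -0.176. Apoc1 had r = 0.762 and Apoa1, the main protein of high density lipoprotein, 0.504. Apoe had r = 0.964 on the 18 limit-rich arrays and Apoc1 0.943. Neither had a probe among the 26, but Apoe was within 0.0001 of Scd1 on 27 arrays (12 of the 18) and Apoc1 on 10 (4 of the 18). With the median of the 26 probes in the model, Apoe was not called by limma (adjusted p = 0.895), and neither were Apoc1 (0.0864) and Apoa1 (0.379). Of 14 measured genes of fatty acid uptake and PPAR gamma, 2 rose and 1 fell; Fabp1, with r = 0.656 and rho = 0.893, is one of the genes at the common value. In bile acid synthesis and transport 1 of 11 measured fell, Cyp7a1, the rate-limiting enzyme (r = -0.292, rho = -0.147). Without the 5 mice of the upper tail of Scd1 it had r = -0.0817 and was not called. Of 13 insulin and fasting genes the call was Pck1 alone, at the common value.

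**Figure D5:**
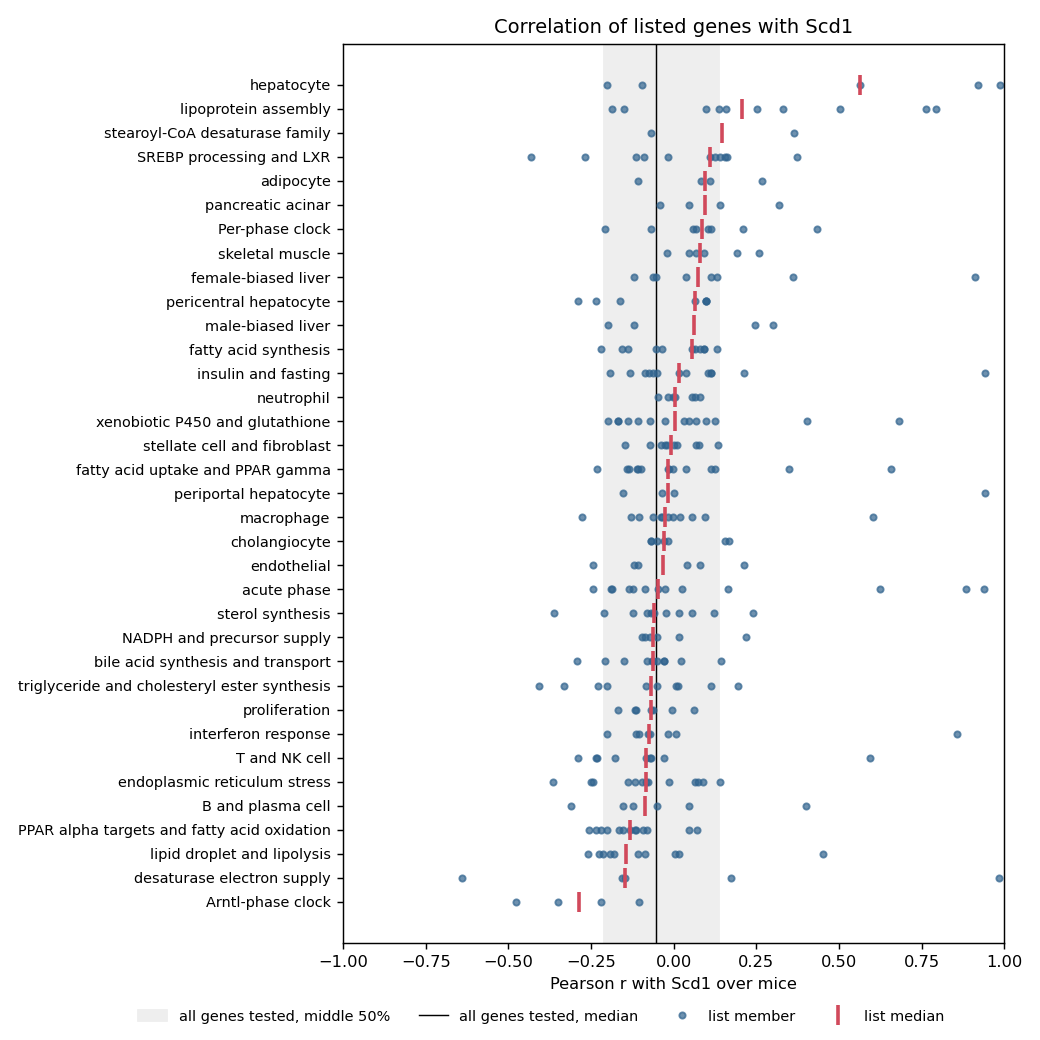
Each row is 1 gene list, ordered by median; points give the Pearson r of its measured members with Scd1 over mice, red bars the list median, the black line the median of all genes tested (-0.0528) and the grey band their middle 50%. Hepatocyte markers had the highest list median (0.564) and the Arntl-phase clock genes the lowest (-0.285). The hepatocyte markers include Alb and Ahsg, whose probes lay within 0.0001 of Scd1 on 81 and 50 arrays.

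Endoplasmic reticulum stress genes gave 3 negative calls of 13 measured (23.1%), near the 22.4% of all genes. Among the 3 were the chaperone genes Dnajc3 (r = -0.366) and Pdia6 (-0.246). Both activators of the circadian clock fell with Scd1: Clock had r = -0.477 and rho = -0.511, and Arntl, which varied 8.48-fold, had r = -0.349 and rho = -0.437, and with each array scaled it had r = -0.186 and was not called. They made up the 2 calls among 4 genes of that phase. Of 8 measured genes of the opposite phase, 1 rose, Per1 (r = 0.435, and 0.0274 on the 18 limit-rich arrays), a clock repressor. No label gives the time of tissue collection. Of 8 measured female-biased liver genes 2 rose, Cyp2a4 (r = 0.911, at the common value, and close in sequence to Cyp2a5) and the peroxisomal transporter gene Abcd2 (0.362), and of 4 male-biased ones 2 rose. In drug metabolism 2 of 14 rose, Cyp3a11 (0.682) and Gstp1 (0.404).

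Acute phase genes did not move as a group: 3 of 13 measured rose and 1 fell. Fgb (r = 0.939) and Hp (0.883) are genes at the common value, Fgg, the third fibrinogen chain, had r = 0.625 (0.176 on the 18 limit-rich arrays), and Serpina3n fell (-0.243, and -0.154 with no call once each array was scaled). With the median of the 26 probes in the model the slope of Fgg turned from 0.443 to -1.07 (limma adjusted p = 0.00142). That second slope rests on the few arrays where Scd1 lay apart from this median. Of 8 interferon response genes 1 rose, Mx1, with r = 0.857, a median of -0.0224 and a range of 2.14-fold. None of 7 proliferation genes was called.

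Markers of hepatocytes and of other liver cells were set beside Scd1, since in a bulk liver sample fewer cells of a type and less RNA per cell cannot be told apart. Of 5 hepatocyte markers measured of 8 listed, 3 rose: Alb, Ahsg and the urea cycle enzyme gene Arg1 (r = 0.564, slope 0.548 ± 0.0788, SE). Alb is one of the genes at the common value (81 arrays), and Ahsg was within 0.0001 of Scd1 on 50 arrays. Apoh had r = -0.202 (limma adjusted p = 0.0847; called at -0.345 with the first principal component removed), so the markers did not follow Scd1 together. Pericentral markers gave 2 negative calls of 7, and periportal ones 1 positive of 4, Pck1. Of 12 macrophage markers 1 rose, Trem2 (r = 0.604), and 1 fell, Adgre1 (-0.278). Of 9 T and NK cell markers 1 rose, Cd4 (0.595, and 0.0356 on the 18 limit-rich arrays), and 3 fell. Of 6 B and plasma cell markers 1 rose and 1 fell, and of 6 endothelial markers 1 fell. None of 7 neutrophil, 10 stellate cell and fibroblast and 7 cholangiocyte markers was called. One marker rose in each of the lists for other tissues: Retn of 4 adipocyte, Cela2a of 4 pancreatic acinar and Ckm of 6 muscle markers, with r of 0.266, 0.318 and 0.258. None of these passed without mice 144 and 122. The part of cell composition in the values of Scd1 was not tested.

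To set Scd1 directly against fatty acid synthesis, each gene was fitted on scaled Scd1 and the scaled score of the 11 genes together, and the difference of both slopes was computed with limma. Scd1 was chosen for not following these genes, which makes such differences likely, so the counts are a description. Of 12303 genes, 3126 (25.4%) had a higher slope on Scd1 than on the score, and 3566 (29.0%) a higher slope on the score. The difference keeps its sign, so these counts do not tell which of both a gene followed more closely. Ube2q1, with slopes of -0.0309 on Scd1 and 0.00088 on the score, was counted on the side of the score. So was Nras, with -0.0943 and -0.0310. The named genes at both ends differed through the score, since their slopes per SD of Scd1 ran only from -0.0592 (Cyp4a14) to 0.0492 (Chil3). On the side of Scd1 were Mmp7, Bex1, Chil3, Gpnmb, Lgals3 and Ngp, with differences of 0.303 (Ngp) to 0.420 (Mmp7) log10 per SD. These include a matrix protease (Mmp7), a macrophage glycoprotein (Gpnmb), the galectin Lgals3 and a neutrophil granule protein (Ngp), and their slopes on the score were negative, from -0.413 (Mmp7) to -0.284 (Lgals3). On the side of the score were the hepatocyte genes Car3, Cyp4a14, Hao2, Ces3a, Cyp2f2 and Sult2a8, with differences of -0.414 (Car3) to -0.323 (Sult2a8) and slopes on the score from 0.303 (Sult2a8) to 0.429 (Car3). Lgals3 had r = 0.0937 with Scd1 (limma adjusted p = 0.467; called at 0.222 with the first principal component removed) and Car3 0.00975 (0.948).

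In an F2 cross, genes near each other are inherited together. Of 86 measured genes within 5 Mb of Scd1 in the mouse assembly GRCm38.p6, 18 rose with it (20.9%) and 13 fell (15.1%), against 17.6% and 22.4% of all genes. The median r of the 86 was -0.0409. The largest r values were those of Pitx3, a transcription factor gene of the lens and midbrain (0.702), and Nkx2-3, a homeobox gene of spleen and gut (0.581); the lowest included Arl3, a small GTPase gene of cilia (-0.471), and Zfyve27 (-0.455). No genotypes were analysed here.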

How the data were processed

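The deposited table holds 1 value per probe and array, made by the authors and read here as a log10 ratio of mouse to pool; scale and direction are not stated in the labels. Scanner, dyes, background correction and normalization: not given in the sources used here. Values at -2 or 2 (1.07% of all) were treated as not measured, and 1.69% were missing. Probes with values on at least 90% of arrays (20633) were kept. Names came from the platform annotation, updated through the gene table of GRCm38.p6; 14744 probes had 1 symbol, 18 several and 8774 none, and probes of a gene were averaged.

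Each gene was fitted on Scd1 with limma 3.58.1 (R 4.3.3), adjusted by Benjamini and Hochberg over 12303 genes at 0.05, with 100000-permutation tests of Pearson r and Spearman rho (Python 3.11.15, numpy 2.4.6). Scores are means of genes scaled to SD 1. The fits were tested on simulated data. Members and lists were chosen with earlier results of these data known. Named genes were the 12 largest r in each direction, 6 at each end of the difference of slopes, all genes of the fatty acid synthesis, desaturase and electron supply lists, up to 4 of each other list by absolute r and up to 6 neighbours, of which the text gives a part. P-values measure the spread between single arrays of separate mice.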

Additional observations from a re-analysis of the deposited data

How the results depend on the processing

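Alternatives were the arrays used, values at the limits, the probe filter, array scaling, removal of the first principal component and the statistic; those using the common value or leaving out the 5 mice of the upper tail of Scd1 were chosen after seeing the data. On the 18 limit-rich arrays alone, 90 genes had a positive and 19 a negative slope on Scd1, 79 and 27 were called for Scd1 over the score and the score over Scd1, and the Scd1 range was 1.58-fold; fewer samples were fitted there. Without the 5 mice (144, 122, 155, 111 and 39) 1693 negative slopes were called in place of 2758, and 1725 positive ones in place of 2170. With the common value as a covariate, 536 and 419 were called. Every other count in those alternatives was within 1.5 times its main value. Among called genes given in the text, the sign of r turned for Pnpla2 (rho 0.107, limit-rich arrays 0.0251, without the 5 mice 0.0369) and Abhd5 (limit-rich arrays -0.137, arrays at the common value -0.0616). Ngp, not called in the main fit (r = -0.0159), was called at 0.292 with each array centred and scaled. Other uncalled genes with r near 0 turned sign without a call, such as Mmp7 (r = 0.0186, rho = -0.0495) and Lgals3 (r = 0.0937, rho = -0.0223). With the common value as a covariate the slope was called with the opposite sign for F2 (-0.390), Fgg (-1.07) and Ckm (-1.13). F2 has a probe among the 26 whose median is the covariate. Scd1 lay within 0.0001 of that median on 87 of 104 arrays. These slopes thus rest on the few arrays where both differ and describe no relation over all mice. With the first principal component removed Chil3 (0.245) and Cyp4a14 (-0.296) gained a call. Calls gained in that setting by Lgals3, Cyb5b, Taldo1 and Apoh stand beside their values in the report. So do those gained by Cyb5r1 with rho and by Cyb5r3 on the 86 arrays. The cause was not tested. A fit with each Scd1 probe alone was not possible, since there is 1, and the range was not computed for scaled arrays. No paired analysis was possible because there is 1 group. Signal over background was not used here.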
